A study of Homo sapiens with 6 samples.

Results

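F-box substrate receptor genes were taken as the protein-coding genes whose symbol starts with FBXL, FBXO or FBXW followed by a digit. Of 62 such genes in the annotation, 61 had a counted transcript among the 37339 matched transcription units (TUs) of the series, namely 16 FBXL, 36 FBXO and 9 FBXW genes, and FBXL15 had none. Nascent and steady-state RNA were measured in untreated K562 cells, an erythroid-like human line from chronic myelogenous leukemia. There were 2 PRO-seq libraries, which sequence RNA still held by engaged RNA polymerase, and 4 RNA-seq libraries of total RNA after rRNA depletion, all from cells of a single flask. The replicates therefore measure technical spread and not the spread between cultures.

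An F-box protein is the part of an SCF ubiquitin ligase that recognizes the substrate. Its F-box motif binds the adaptor SKP1, SKP1 binds the scaffold CUL1, and CUL1 carries the RING protein RBX1, which recruits a ubiquitin-loaded E2 enzyme. Family names follow the substrate-binding part, with leucine-rich repeats in FBXL proteins, WD40 repeats in FBXW proteins and other or no known domains in FBXO proteins. Attachment of NEDD8 to CUL1 turns the ligase on, the COP9 signalosome removes NEDD8, and CAND1 exchanges one F-box protein for another, so that many receptors compete for a common core.

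Depth was between 5732780 and 9002746 counts on TUs in the RNA-seq libraries and was 6993816 and 7245632 in the PRO-seq libraries. Levels are given in the unit TPM (transcripts per 1e6), which divides counts by TU length and library size. The length was that of the exons for RNA-seq and the genomic span minus 1000 bp for PRO-seq, because PRO-seq reads within 500 bp of either TU end were not counted. The identity of the cells was checked with 9 erythroid markers, all of which had RNA-seq counts, from 13.2 TPM for the zeta globin gene HBZ to 6287 TPM for the fetal globin gene HBG2. Of 6 matched markers of other lineages, 4 were at or below 0.483 TPM and the other two were the epithelial gene EPCAM, at 119.8 TPM, and the T-cell gene CD3D, at 108.9 TPM.

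Most F-box genes were transcribed in K562 cells, and few were abundant. PRO-seq counts, of any number, were present in both libraries for 59 of the 61 genes, and RNA-seq counts in all 4 libraries for 52. Over all TUs, 73.2% had counts in the summed PRO-seq libraries and 68.1% in the summed RNA-seq libraries. Of the F-box genes, 17 were under 10 TPM in PRO-seq and 14 under 1 TPM in RNA-seq. The median PRO-seq level was 29.9 TPM and the median RNA-seq level 11.9 TPM, against 8.04 and 2.67 TPM over all 18964 mRNAs with a length for PRO-seq. Among genes past the thresholds (10 TPM for nascent and 1 TPM for steady-state RNA), the medians were instead 42.6 and 19.3 TPM for the F-box genes and 47.5 and 31.2 TPM for all mRNAs. Genes next to each other in the order of levels were mostly inseparable. The ranges over libraries overlapped for 46 of 60 neighbouring pairs in PRO-seq and for 51 of 60 in RNA-seq.

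The gene with the highest nascent level was FBXO5, which encodes EMI1, an inhibitor of the anaphase-promoting complex that restrains this other cell-cycle ligase until mitosis. FBXO5 (chr6:152970535-152983579, GRCh38) reached 330 and 301.3 TPM in the PRO-seq libraries and 107.4, 107.8, 102.7 and 107.7 TPM in the RNA-seq libraries. Its PRO-seq values did not overlap those of any other F-box gene. Next came FBXO30, a receptor linked to muscle wasting, at 133.0 and 142.4 TPM, FBXW9 at 125.7 and 134.4 TPM and FBXW2 at 121.0 and 126.3 TPM. These ranges overlapped from one gene to the next. FBXW5, known for control of centrosome duplication, came after them at 80.8 and 101.0 TPM.

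The order of steady-state RNA was different. FBXW5 was highest, at 108.1, 112.5, 114.8 and 109.6 TPM in RNA-seq, just above FBXO5. FBXO7, whose loss causes an early-onset parkinsonism, followed at 85.3, 90.02, 96.9 and 90.1 TPM. FBXO45, a brain-enriched receptor that works with the ligase MYCBP2, was at 55.9, 55.3, 54.8 and 54.3 TPM, and FBXO4, a receptor for cyclin D1, was at 53.1, 52.1, 52.1 and 49.6 TPM. Each of these 5 genes was separated from the next in the order by ranges that did not overlap. Of the 3 genes below FBXO5 in the nascent order, FBXO30 had an RNA-seq level of 26.7 to 28.8 TPM, FBXW2 of 29.5 to 32.8 TPM and FBXW9 of 14.05 to 18.6 TPM. All 12 of these library values lay below those of the 5 genes highest in RNA-seq.

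At the other end, 3 genes had no RNA-seq count in any library. They were FBXL7, an F-box protein reported to target Aurora A, FBXO47, a gene of the germ line, and FBXW10. A limit of 3 counts over the summed libraries, which covers counting error only, allows at most 0.0482 TPM for FBXL7, 0.0958 TPM for FBXO47 and 0.0649 TPM for FBXW10. PRO-seq counts in the pair of libraries together were 42 for FBXL7, 44 for FBXO47 and 5 for FBXW10. FBXO32, the muscle-wasting receptor atrogin-1, was also low, with 0.191, 0.397, 0.454 and 0.495 TPM in RNA-seq and 2.10 and 3.23 TPM in PRO-seq. FBXO40, a second receptor known from skeletal muscle, had 4 RNA-seq and 8 PRO-seq counts.

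The promoters of 2 genes high and 3 genes low in the PRO-seq order are shown as examples, with from 1 to 39 CG dinucleotides. Over the 48 F-box promoters the number ran from 1 to 45. They were picked with their values known. CG dinucleotides were counted in 300 bases from 250 before to 50 after the RefSeq start (GRCh38.p14). Of the 61 genes, 48 had a promoter in the table. The windows are FBXO5 chr6:152983530-152983829 (minus strand), FBXW5 chr9:136944689-136944988 (minus strand), FBXL7 chr5:15499930-15500229 (plus strand), FBXO40 chr3:121593129-121593428 (plus strand) and FBXW10 chr17:18743804-18744103 (plus strand). They are written 5′ to 3′ on the strand of the gene, with each CG dinucleotide in capitals.
FBXO5: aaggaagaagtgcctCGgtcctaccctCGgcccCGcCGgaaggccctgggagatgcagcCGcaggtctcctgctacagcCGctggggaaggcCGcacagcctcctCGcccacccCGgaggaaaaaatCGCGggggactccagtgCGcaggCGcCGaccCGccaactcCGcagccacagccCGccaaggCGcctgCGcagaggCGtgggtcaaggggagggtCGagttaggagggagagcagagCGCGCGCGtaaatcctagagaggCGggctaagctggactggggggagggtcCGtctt
FBXW5: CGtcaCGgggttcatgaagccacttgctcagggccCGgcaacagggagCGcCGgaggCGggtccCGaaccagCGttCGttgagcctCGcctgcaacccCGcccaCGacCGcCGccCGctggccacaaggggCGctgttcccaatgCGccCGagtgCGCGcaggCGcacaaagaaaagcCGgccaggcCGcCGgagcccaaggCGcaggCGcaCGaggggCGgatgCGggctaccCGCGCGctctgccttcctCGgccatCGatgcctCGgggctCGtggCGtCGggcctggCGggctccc
FBXL7: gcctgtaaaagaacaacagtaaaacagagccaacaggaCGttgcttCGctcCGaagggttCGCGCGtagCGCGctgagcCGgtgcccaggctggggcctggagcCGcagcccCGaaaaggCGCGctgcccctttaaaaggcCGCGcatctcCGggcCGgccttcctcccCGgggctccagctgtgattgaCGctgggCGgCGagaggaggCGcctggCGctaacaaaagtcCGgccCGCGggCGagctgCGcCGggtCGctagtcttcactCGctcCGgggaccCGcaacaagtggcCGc
FBXO40: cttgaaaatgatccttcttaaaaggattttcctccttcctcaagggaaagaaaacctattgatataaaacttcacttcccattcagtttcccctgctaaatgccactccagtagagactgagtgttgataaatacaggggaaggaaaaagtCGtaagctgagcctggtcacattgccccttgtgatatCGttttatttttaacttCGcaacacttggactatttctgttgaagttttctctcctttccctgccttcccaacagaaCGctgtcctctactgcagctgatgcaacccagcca
FBXW10: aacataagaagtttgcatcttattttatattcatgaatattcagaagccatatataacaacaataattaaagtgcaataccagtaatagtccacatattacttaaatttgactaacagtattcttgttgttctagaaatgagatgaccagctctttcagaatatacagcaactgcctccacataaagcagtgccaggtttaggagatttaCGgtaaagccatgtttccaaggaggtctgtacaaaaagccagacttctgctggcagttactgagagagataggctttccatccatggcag

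FBXO5 and FBXW5 hold 27 and 39 CG dinucleotides in these windows, and FBXO40 and FBXW10 hold 4 and 1. FBXL7, the lowest gene in PRO-seq at 0.183 TPM, holds 34 CG dinucleotides, more than 78.5% of 14622 mRNA promoters. Many CG dinucleotides at a low nascent level were also seen in FBXO2 (35 at 2.40 TPM), FBXO24 (35 at 5.28 TPM) and FBXO15 (29 at 1.17 TPM), so the low genes were not all poor in CG. Over the F-box promoters the median was 30.5 CG dinucleotides for the 34 genes past both thresholds and 22 for the 14 others, against 23 for all mRNA promoters. The Spearman correlation between CG number and PRO-seq TPM was 0.263 over the 48 genes, a description over genes that share libraries and depth. FBXO28, a receptor linked to MYC, had 9 CG dinucleotides at 62.1 TPM in PRO-seq. The window follows the RefSeq start and need not be the start used in K562 cells.

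**Figure D1:**
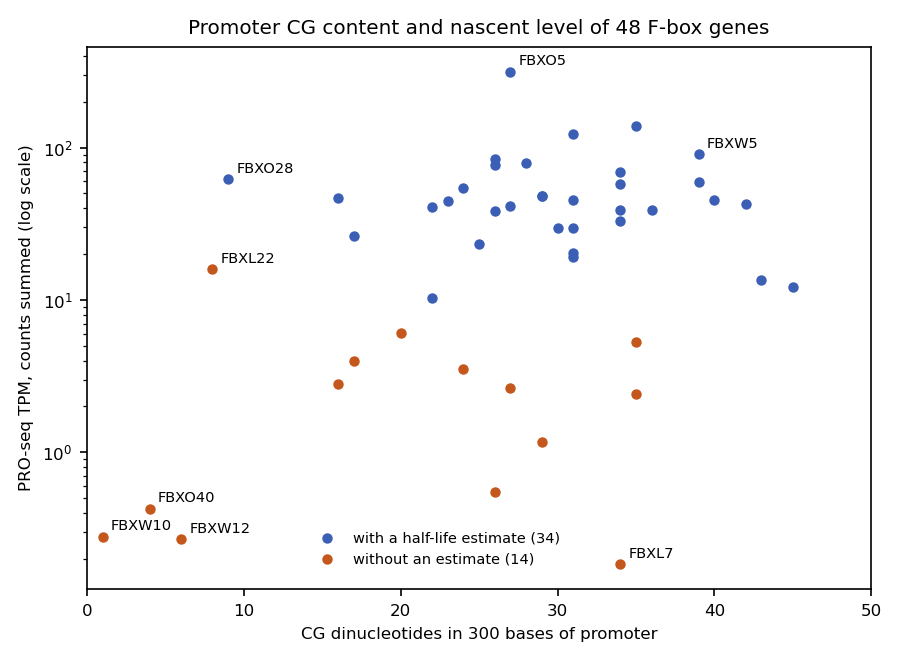
CG dinucleotides in 300 bases of promoter (horizontal axis) against PRO-seq TPM from summed counts (vertical axis, log scale) for 48 F-box genes, with genes past both thresholds in blue and the others in orange. FBXW10, FBXO40 and FBXW12 are low on both axes, FBXL7 has 34 CG dinucleotides at 0.183 TPM, and FBXO28 has 9 at 62.1 TPM.

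Letter matches to common promoter motifs were counted on both strands in the same windows. TATAAA was found in 2 of 48 F-box promoters, those of FBXO40 and FBXW10, and in 8.98% of all mRNA promoters. GGGCGG, the core of the binding site of SP1, was found in 37 of the 48 (77.1%) against 60.2% of all, and CCAAT in 14 of the 48 (29.2%) against 36.3% of all. Matches of different motifs may share bases, and GGGCGG holds a CG. Such a match is not evidence of a bound site.

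Relative half-life was estimated, following the study, as RNA-seq TPM over PRO-seq TPM from summed counts, for TUs past both thresholds. The study based its main estimates on other, published PRO-seq and poly-A+ RNA-seq data. It found those less variable, and closer to published half-lives, than estimates from the libraries used here. The ratio stands for half-life only at steady state. PRO-seq measures polymerase occupancy, which also depends on elongation rate, a limitation that the study names. No correction for elongation rate was made here, so a difference in ratio need not be one in RNA stability. Of the 61 genes, 43 (70.5%) had an estimate, against 46.1% of mRNAs. Of the 18 without one, 13 were under both thresholds, 4 were under the PRO-seq threshold alone and FBXL22 was under the RNA-seq threshold alone. The 4 were FBXO10, FBXO16, FBXL2 and FBXO27. Just inside the PRO-seq threshold was FBXO48 at 10.3 TPM, and just outside was FBXO27 at 6.03 TPM. Values are given below as log2 differences from the median mRNA, with standard errors (SE) and adjusted p-values from the quasi-likelihood test of edgeR over all 9929 TUs tested.

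The F-box mRNAs were centred below the median mRNA and were less spread than mRNAs as a whole. Their median was -0.47 on the log2 scale relative to the median mRNA, with a range from -3.32 to 1.27. The SD over genes was 1.01, against 1.68 for the 8733 mRNAs with an estimate. In the edgeR test, 14 of the 43 were above the median mRNA (32.6%), where 40.4% of all TUs tested and 45.4% of protein-coding TUs were. Another 25 were below it (58.1%), where 50% of all TUs tested and 44.9% of protein-coding TUs were. FBXL14, FBXL17, FBXW4 and FBXO44 did not pass the test in either direction. The numbers below and above were closer, at 15 (48.4%) and 13 (41.9%), among the 31 genes with under 5% of their PRO-seq window under another counted TU. These shares lie near those over all TUs tested, to which no such filter was applied. The filter joined overlaps on the same and on the other strand. The part of overlap in the number of genes below was not tested. Against a 2-fold difference from the median mRNA, 1 gene was above and 10 were below, where 2138 and 2898 of 9929 TUs tested were. With CPM in place of TPM, that is, without division by length, the sign turned for FBXO28, FBXO30, FBXO5, FBXW2, FBXW11 and FBXW7, among the genes named by rule, of which FBXO48 had no value with CPM. The Spearman correlation between PRO-seq and RNA-seq TPM was 0.632 over the 43 genes and 0.551 over all mRNAs with an estimate.

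The 3 families overlapped widely. Of 12 FBXL genes with an estimate, 3 were above (25%) and 7 below (58.3%) the median mRNA, with a median of -0.68. Of 24 FBXO genes, 8 were above (33.3%) and 15 below (62.5%), with a median of -0.59. Of 7 FBXW genes, 3 were above and 3 below (42.9% each), with a median of -0.18. Of all TUs tested, 40.4% were above and 50% below. The difference between families was not tested.

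The longest relative half-life belonged to FBXO7, which acts in mitophagy and proteasome regulation. It had 58.96 and 57.0 TPM in PRO-seq, beside the RNA-seq values of 85.3 to 96.9 TPM given above, so that every RNA-seq value exceeded both PRO-seq values. Its log2 difference from the median mRNA was 1.28 (SE 0.070, edgeR adjusted p = 4.95e-17), a 2.42-fold longer relative half-life. It was counted on a transcript annotated as a target of nonsense-mediated decay, which covers 85.7% of the exon bases of the canonical transcript. FBXW5 was the next, at 0.93 (SE 0.11, edgeR adjusted p = 3.87e-09), and all of its RNA-seq values also exceeded its PRO-seq values. FBXO4 was at 0.74 (SE 0.087), with PRO-seq values of 48.8 and 47.8 TPM below all 4 of its RNA-seq values.

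The other 5 genes of the 8 with the longest relative half-lives were close to each other. FBXO3 was at 0.57 (SE 0.092) with 31.997, 40.3, 34.6 and 42.9 TPM in RNA-seq and 36.7 and 41.7 TPM in PRO-seq. FBXW11, also called beta-TrCP2 and known for degradation of beta-catenin and of the NF-kappaB inhibitor, was at 0.57 (SE 0.053) with 39.0, 37.4, 42.4 and 40.4 TPM in RNA-seq and 41.4 and 41.7 TPM in PRO-seq. In both genes the values of the assays overlapped, and the difference is one from the median mRNA, whose log2 ratio of RNA-seq to PRO-seq TPM was -0.64. FBXO38, a receptor for PD-1 in T cells, was at 0.56 (SE 0.063) with RNA-seq values of 39.6 to 42.9 TPM. FBXO6, which binds the sugars of misfolded glycoproteins, was at 0.45 (SE 0.12) with RNA-seq values of 32.1 to 39.0 TPM. FBXL5, the iron sensor that marks the iron regulatory protein IRP2 for degradation, was at 0.45 (SE 0.070, edgeR adjusted p = 8.26e-07) with 35.7 to 38.2 TPM in RNA-seq and 38.4 and 46.7 TPM in PRO-seq. With CPM without length FBXL5 was at 0.13 and did not pass the edgeR test (adjusted p = 0.088).

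**Figure D2:**
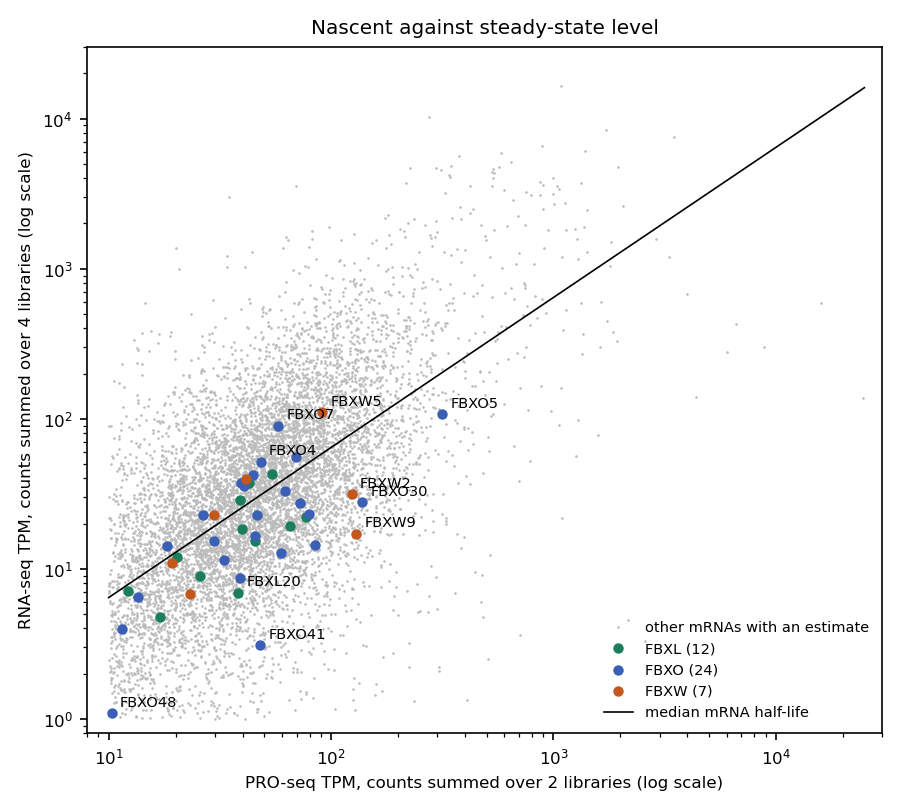
PRO-seq TPM (horizontal axis) against RNA-seq TPM (vertical axis), both from summed counts and on log scales, for mRNAs past both thresholds (grey) and the 43 F-box genes, coloured by family. The line marks the median mRNA half-life. FBXO7, FBXW5 and FBXO4 lie above it, and FBXO41, FBXO48, FBXW9 and FBXO30 lie below.

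The shortest relative half-life was that of FBXO41, a receptor best known from neurons. FBXO41 (chr2:73254690-73284478, GRCh38) had PRO-seq levels of 45.6 and 50.6 TPM and RNA-seq levels of 3.19, 2.92, 3.24 and 3.09 TPM. Its log2 difference was -3.32 (SE 0.099, edgeR adjusted p = 5.02e-24), which is 9.96-fold below the median mRNA, and only 2.91% of mRNAs had a lower value. No other counted TU overlapped its PRO-seq window, and its counted exons cover 99.4% of those of the canonical transcript. The ratio of 1 RNA-seq library to 1 PRO-seq library gave between -3.47 and -3.20 for FBXO41 in all 8 combinations.

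FBXO48 was next at -2.59 (SE 0.33), but it rests on 85 RNA-seq and 37 PRO-seq counts and lay close to both thresholds. FBXO48 had 1.05 to 1.15 TPM in RNA-seq and 11.3 and 9.38 TPM in PRO-seq, and it had no estimate without PRO-seq replicate 1. FBXW9 was at -2.28 (SE 0.11, edgeR adjusted p = 1.18e-18) with 16.8, 18.6, 14.05 and 18.4 TPM in RNA-seq. The counted FBXW9 transcript is annotated as a target of nonsense-mediated decay and covers 75.0% of the canonical exon bases. FBXO46 was at -1.92 (SE 0.090), with PRO-seq values of 79.7 and 88.8 TPM and RNA-seq values of 12.0 to 15.5 TPM. FBXL20, known as a regulator of synaptic vesicle release, was at -1.82 (SE 0.060) with PRO-seq values of 36.96 and 39.2 TPM and RNA-seq values of 6.77 to 7.19 TPM. In each of these genes all RNA-seq values lay below the PRO-seq values. That alone does not set them apart, since the median mRNA had a log2 ratio of -0.64. The same was seen in FBXL14 and FBXL17, which did not pass the edgeR test.

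The remaining genes of the lowest 8 were FBXO30, FBXO42 and FBXO17. FBXO30 was at -1.68 (SE 0.058), and 73.4% of its PRO-seq window lies under the divergent transcript EPM2A-DT on the other strand. EPM2A-DT itself had 150 PRO-seq counts and 0 RNA-seq counts, against 1460 and 3408 for FBXO30. FBXO42, an F-box protein reported to act on p53, was at -1.58 (SE 0.063) with PRO-seq values of 57.4 and 61.1 TPM and RNA-seq values of 11.2, 13.7, 12.8 and 13.3 TPM. FBXO17, of the sugar-binding group, was at -1.52 (SE 0.11) with PRO-seq values of 36.7 and 41.2 TPM and RNA-seq values of 8.23 to 9.15 TPM. Part of the FBXO17 window (23.9%) lies under a protein-coding TU on the same strand, whose exons share 18.6% of the FBXO17 exon bases. No source used here gives the strand setting of HTSeq, but the counts bear on it. Of 4623 TUs whose PRO-seq window lies wholly within that of a TU on the other strand, 58.0% had PRO-seq counts, against 2.24% of 2005 TUs wholly within one on the same strand and 73.2% of all TUs. For exon bases wholly shared the RNA-seq shares were 60% of 160 TUs and 7.61% of 289. Reads were thus kept under an opposite neighbour and mostly lost under one on the same strand. The part of same-strand overlaps in the F-box values was not tested.

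Receptors that act in the cell cycle lay on both sides of the median mRNA. Of 10 listed, 7 had an estimate, of which 2 were above and 5 below (71.4%, where 50% of all TUs tested and 58.1% of the F-box genes were below), with a median of -0.93. FBXW7, the receptor for cyclin E, MYC and NOTCH, was slightly above, at 0.25 (SE 0.055, edgeR adjusted p = 0.000106), with 22.3, 22.5, 24.7 and 22.3 TPM in RNA-seq and 29.1 and 30.7 TPM in PRO-seq. FBXO4 was the other gene above. FBXO5, with its high levels, was below at -0.93 (SE 0.055, edgeR adjusted p = 3.79e-16), and each of its RNA-seq values was well under its PRO-seq values. FBXO31, a second receptor for cyclin D1, was at -0.81 (SE 0.090) with 18.3, 16.0, 17.6 and 14.6 TPM in RNA-seq. FBXO31 was counted on a transcript that covers 29.5% of its canonical exon bases. This transcript shares 20.7% of its exon bases with a TU on the same strand. When every TU with at least 1 count in each assay was kept, FBXO31 was at -0.15 and did not pass the edgeR test (adjusted p = 0.13). FBXW8, FBXL12 and FBXL8 were also below, between -1.20 and -1.13, of which FBXL8 rests on 35 RNA-seq and 32 PRO-seq counts. The counted FBXL8 transcript covers 25.3% of the canonical exon bases and shares 47.1% of its own with a same-strand TU. The part of shared exons in the FBXL8 and FBXO31 values was not tested.

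Receptors tied to mitochondria and iron lay on both sides. FBXO7 and FBXL5 were above, as given, and FBXL4, which restrains mitophagy, was below at -0.94 (SE 0.058, edgeR adjusted p = 1.25e-15). FBXL4 had 15.2, 15.2, 14.7 and 15.9 TPM in RNA-seq and 44.4 and 46.3 TPM in PRO-seq. Of the 5 muscle-wasting receptors and their relatives, FBXO30, FBXO25 and FBXO21 had an estimate, and all 3 were below, between -1.68 and -0.88, where 50% of all TUs tested were below. FBXO32 and FBXO40 had none.

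The 5 sugar-binding receptors lie in a pair of gene clusters. FBXO2, FBXO44 and FBXO6 follow each other on chromosome 1 between 11648387 and 11674354 (GRCh38), and FBXO2 and FBXO44 overlap by 23 bp at their starts, so that their promoter windows share 77 bases. FBXO17 and FBXO27 are neighbours on chromosome 19, 30099 bp apart. Their nascent levels differed within each cluster. FBXO2 had 2.43 and 2.38 TPM in PRO-seq, FBXO44 13.5 and 13.7 TPM and FBXO6 38.0 and 43.1 TPM, with no overlap between the 3. On chromosome 19, FBXO27 had 7.46 and 4.63 TPM, below both values of FBXO17. FBXO6 was above the median mRNA, FBXO17 was below it and FBXO44, at -0.43 (SE 0.23), did not pass the edgeR test (adjusted p = 0.083).

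Other receptors chosen for their known substrates spread on both sides. FBXO11, the receptor for BCL6, was at -1.13 (SE 0.054, edgeR adjusted p = 1.16e-18) with 22.2 to 25.1 TPM in RNA-seq and 80.0 and 78.8 TPM in PRO-seq. Exons of MSH6 on the other strand cover 34.5% of the exon bases of FBXO11, and MSH6 had 11647 RNA-seq counts against 1502. FBXO28 was close to the median at -0.28 (SE 0.058, edgeR adjusted p = 5.53e-05), and its sign turned when every TU with at least 1 count in each assay was kept, to 0.38. FBXO45 was above at 0.31 (SE 0.067), and FBXW2 was below at -1.34 (SE 0.052).

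The other F-box mRNAs above the median mRNA lay close to it. FBXO8 was at 0.41, FBXL19, a relative of the histone demethylase KDM2A, at 0.28, FBXO33 at 0.27 and FBXL13 at 0.20. The RNA-seq values of these 4 genes were all below their PRO-seq values, from 21.04 to 23.5 TPM against 27.2 and 25.7 TPM in FBXO8 and from 38.9 to 45.4 TPM against 56.8 and 52.1 TPM in FBXL19. Among those below, FBXO22, a receptor for histone demethylases of the KDM4 family, was at -0.76 (SE 0.064) with PRO-seq values of 72.8 and 71.97 TPM and RNA-seq values of 25.3 to 29.4 TPM.

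The 18 genes without an estimate had summed levels up to 8.63 TPM in RNA-seq and from 0.183 to 15.97 TPM in PRO-seq. FBXO10 and FBXO16 were the highest of them in RNA-seq, with 6.89, 8.34, 8.39 and 7.10 TPM for FBXO10, known to act on BCL2, and 8.19, 9.39, 8.86 and 7.94 TPM for FBXO16. Their PRO-seq values were lower than these in every library, at 1.68 and 3.59 TPM for FBXO10 and 3.40 and 3.50 TPM for FBXO16. The PRO-seq window of FBXO10 lies for 98.2% under a protein-coding TU on the same strand, which had 1214 PRO-seq counts and no RNA-seq count, against 89 and 490 for FBXO10. FBXL22, a muscle receptor, showed the opposite pattern, at 20.9 and 11.2 TPM in PRO-seq and 0.160 to 0.251 TPM in RNA-seq. Of its window, 72.2% lies under the antisense RNA USP3-AS1 on the other strand, which had 819 PRO-seq counts against 34 for FBXL22. FBXO16 was counted on a transcript annotated as a target of nonsense-mediated decay, with a span of 141970 bp. Its RefSeq gene lies at chr8:28428412-28490229 (GRCh38). Of the FBXO16 window, 32.8% lies under same-strand TUs that had no counts in either assay. The part of gene models and same-strand neighbours in the FBXO10 and FBXO16 values was not tested.

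The F-box receptors were set beside the rest of the SCF system, which shares the same libraries. Of 9 matched genes of the SCF core and its E2 enzymes, 6 were above the median mRNA and 3 below, with a median of 1.07. Of all protein-coding TUs tested, 45.4% were above and 44.9% below. The scaffold CUL1 was at 1.07 (SE 0.051), with a level of 93.5 TPM in RNA-seq from summed counts, RBX1 was at 2.37 with 191.3 TPM, and the E2 gene CDC34 was at 2.88 with 183.2 TPM. The adaptor SKP1 was below at -0.33 (SE 0.051) with 50.1 TPM. SKP1 had more RNA-seq counts than CUL1, 6391 against 3633, and TPM divides counts by the exon length of the counted transcript. Counted and canonical transcripts were compared only for the 61 receptors. The part of the gene models in the values of the other SCF genes was not tested. Of the 22 matched genes of the NEDD8 cycle, 19 had an estimate, 14 above and 3 below, against the same shares of protein-coding TUs, with a median of 1.17. The median RNA-seq level was 93.5 TPM for the core and E2 genes and 57.1 TPM for the NEDD8 cycle, against 11.9 TPM for the 61 receptors. By contrast, the median PRO-seq levels were 49.3 and 38.7 TPM, against 29.9 TPM for the receptors. These medians include genes without an estimate, except that all 9 core and E2 genes had one. Among the 43 receptors with an estimate the medians were 19.3 TPM in RNA-seq and 42.6 TPM in PRO-seq. Among the 19 NEDD8 cycle genes with one they were 61.2 and 46.6 TPM. The SCF lists were chosen with earlier results of these data known, and differences between lists were not tested.

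**Figure D3:**
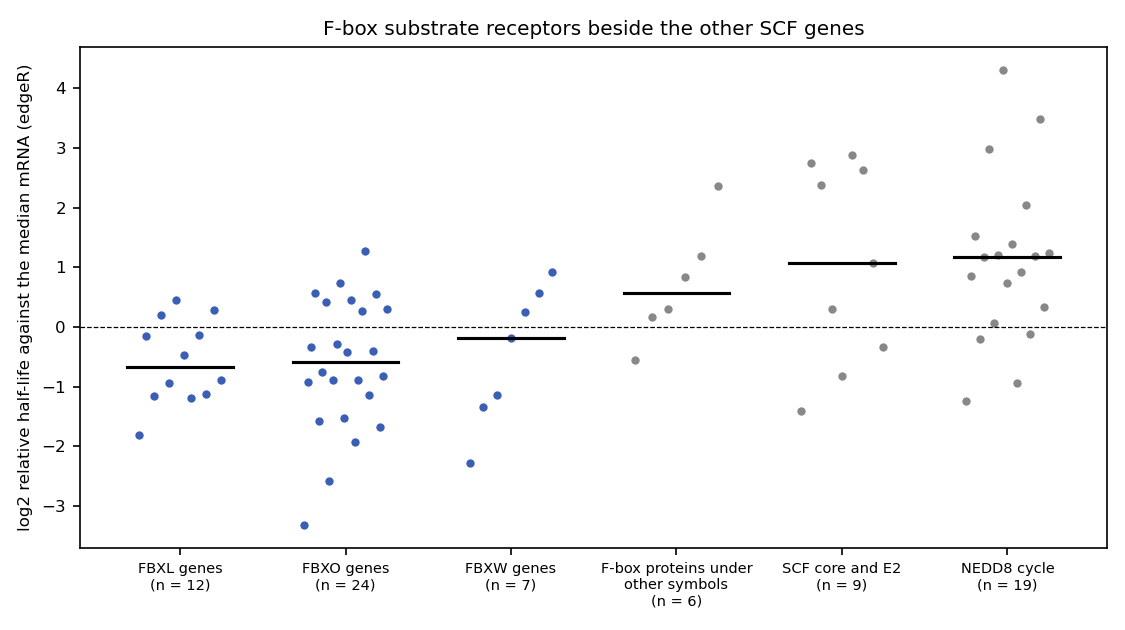
Log2 relative half-life against the median mRNA (edgeR, vertical axis) for F-box genes by family (blue) and for other genes of the SCF system (grey), with 1 point a gene and a bar at the median. Medians are -0.68, -0.59 and -0.18 for FBXL, FBXO and FBXW genes, 0.56 for F-box proteins under other symbols, 1.07 for the SCF core and E2 genes and 1.17 for the NEDD8 cycle.

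Several F-box proteins carry other symbols. Of 9 matched, 6 had an estimate, 5 above the median mRNA and 1 below, where 45.4% and 44.9% of protein-coding TUs tested were. SKP2, the receptor for the inhibitor p27, was at 1.19 (SE 0.060) with 76.8 TPM in RNA-seq and 52.5 TPM in PRO-seq, and the gene of cyclin F, CCNF, was at 0.16 (SE 0.059). The gene below was KDM2A, a histone demethylase, at -0.56 (SE 0.051). BTRC, the paralog of FBXW11, stayed under the PRO-seq threshold at 8.18 TPM, with 7.35 TPM in RNA-seq, where FBXW11 had 41.6 and 39.5 TPM.

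The gene models behind these values were not uniform. Of the 61 genes, 39 were counted on the canonical transcript of the annotation and 22 on another, namely 12 on another protein-coding transcript, 6 on a target of nonsense-mediated decay, 3 on a transcript with no defined coding sequence and 1 on a retained intron. In 9 genes the counted exons cover under 50% of the canonical exon bases. Among genes with an estimate, the 27 on the canonical transcript had 10 above, 14 below and a median of -0.28, and the other 16 had 4 above, 11 below and a median of -0.85. The 12 genes with 5% or more of the PRO-seq window under another counted TU had 1 above, 10 below and a median of -0.97, against -0.28 for the other 31. The part of these gene models in the F-box values was not tested.

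Structure and relative half-life were compared across genes as a description, since genes are not independent replicates. The Spearman correlation between relative half-life and splice junctions per kb of exon was 0.391 over the 43 F-box genes and 0.369 over 8733 mRNAs. For exon length the correlation was -0.26 and -0.33, and for genomic span it was 0.058 and 0.029. FBXO41 and FBXO48 have 7336 and 5699 exon bases, and FBXO7 and FBXO4 have 1900 and 1655. The exon length enters the RNA-seq TPM as its divisor, so exon length and half-life share a term. Splice junctions per kb are divided by exon length as well, so their correlation shares this term too. For the number of exons, without division by length, the correlation was 0.147 over the F-box genes and 0.056 over mRNAs.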

How the data were processed

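Members and gene lists were chosen with earlier results of these data known. The authors trimmed reads with Cutadapt, aligned them with HISAT2 to GRCh38 and counted them per transcript with HTSeq, and the deposited values are raw counts without normalization. No source used here gives their versions or the strand setting. The labels call the counted transcript the longest one.

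Transcripts were joined by identifier to GENCODE release 44 lifted to GRCh37, and 37339 of 42371 (88.1%) were found. Lengths and overlaps come from this annotation, gene positions and promoters from RefSeq (GRCh38.p14), where 61 of 61 genes had a position and 48 a promoter. Rows naming no TU (between 66.5% and 68.6% of records in RNA-seq, and 86.5% and 88.6% in PRO-seq) and 84 TUs no longer than 1000 bp were left out.

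TPM used counts summed within an assay. Each TU past both thresholds (10 TPM for PRO-seq, 1 TPM for RNA-seq) was tested in edgeR (version 4.0.16, R 4.3.3) by the quasi-likelihood test with TMM, length offsets, centring on the median mRNA and Benjamini-Hochberg adjustment over 9929 TUs at 0.05. SEs were taken from the F statistic. DESeq2 (version 1.42.0) was an alternative and Python 3.11.15 was used elsewhere. Counting without molecular identifiers means that limits cover counting error only.

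Genes named with values are the 8 highest and 8 lowest relative half-lives, the 5 highest TPM in each assay, genes with 0 counts in an assay, and a list by role, of which 1 gene is not reported here and is left out of the plots that name each gene. Genes of the sugar-binding group and genes named beside a count, a group or a neighbour (such as FBXO2, FBXO10, FBXO16, FBXL2, FBXL8, FBXL12, FBXO8, FBXO22, FBXL13, FBXL19, FBXO33, FBXO40 and FBXL22) were added after their values were seen.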

Additional observations from a re-analysis of the deposited data

Results flagged for a closer look

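Among 26 named F-box genes, 3 had 1 RNA-seq library flagged as apart from the other 3, where chance gives about 1 in 20. Whether 3 of 26 exceeds this was not tested. These were FBXO38 with 39.6 TPM in replicate 1, FBXO5 with 102.7 TPM in replicate 3 and FBXW7 with 24.7 TPM in replicate 3. The value was the lowest of its gene in FBXO38 and FBXO5 and the highest in FBXW7. The other libraries were at 42.9 TPM in FBXO38, 107.4 to 107.8 TPM in FBXO5 and 22.3 to 22.5 TPM in FBXW7.

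Noncoding genes with F-box symbols were in no comparison above, and some had counts above the limit of 3 that a count of 0 allows. FBXL19-AS1, opposite FBXL19, had 183 RNA-seq and 215 PRO-seq counts, and its log2 difference from the median mRNA was -4.71 (SE 0.17, edgeR adjusted p = 3.81e-22), whereas FBXL19 was at 0.28. The pseudogene FBXL9P had 25 RNA-seq and 250 PRO-seq counts and was at -3.62 (SE 0.25). FBXW4P1, which lies within BCR on the same strand, had 310 RNA-seq counts and none in PRO-seq. In PRO-seq, FBXL21P and FBXO34-AS1 each had 13 counts. FBXO38-DT had 5 RNA-seq and 63 PRO-seq counts, and FBXW11P1 had 4 and 9.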

How the results depend on the processing

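The median log2 relative half-life of the F-box genes stayed negative in all 15 alternatives, between -0.65 and -0.26. It moved by more than its replicate SD of 0.11 to -0.26 with at least 1 count in each assay (58 genes), to -0.65 with thresholds of 20 and 2 TPM, to -0.60 with CPM without length, and to -0.28 both on the canonical transcript alone and with under 5% of the PRO-seq window under another TU. Keeping TUs with at least 1 count also shifted the median mRNA itself, by -0.63 on the log2 scale, so values under it are relative to a lower median.

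The test of a 2-fold difference left 1 of 43 genes above and 10 below, where 2138 and 2898 of 9929 TUs were. Of all TUs in the main test, 50% were below. On the canonical transcript alone, 14 of 27 genes were below (51.9%), and with under 5% overlap 15 of 31 were (48.4%). These last 2 alternatives were chosen after seeing the data. With at least 1 count in each assay, 21 of 58 genes were above and 24 below, where 6634 and 7596 of 20644 TUs were. In the main test 14 and 25 of 43 genes were, where 4010 and 4961 of 9929 TUs were. Leaving out 1 library gave 12 to 14 genes above, 23 to 25 below, 42 to 43 with an estimate and medians between -0.57 and -0.40. FBXO48 lost its estimate without PRO-seq replicate 1 and with CPM. All other alternatives kept the counts above and below within 1.5 times.

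For single genes, 374 of the alternative values kept direction and call, 16 lost the call, mostly under the 2-fold test and for FBXL5 (0.13) with CPM without length and FBXO31 (-0.15) with at least 1 count, and 7 changed sign. FBXO28 changed to 0.38 with at least 1 count and to 0.13 with CPM without length. CPM without length also changed FBXO30 to 0.68, FBXO5 to 0.15, FBXW2 to 0.23, FBXW11 to -0.90 and FBXW7 to -1.47. That alternative drops TU length, which differs between the assays by construction.

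RNA-seq and PRO-seq replicates of the same number share only the number: the correlation of their differences was -0.011 over 9841 TUs. With the replicate block, 13 genes were above and 23 below.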
